A study of Homo sapiens with 4 samples.

Results

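The immunoglobulin segments of 697 cells, an established human line of B-cell precursor acute lymphoblastic leukaemia, were examined after 24 h with 1 µM MZ1 or with an equal volume of its solvent DMSO. MZ1 links the bromodomain ligand JQ1 to a ligand for the ubiquitin ligase VHL and so directs proteins of the BET family to degradation. Each group had 2 RNA-seq libraries, all from the same line, and the labels name no genetic change made to it. The labels do not say whether the 2 libraries of a group came from separate cultures, so p-values describe the spread between libraries, which may be technical. Members were the rows of the count table whose symbol begins as a heavy chain variable, diversity, joining or constant segment (IGH), a kappa segment (IGK) or a lambda segment (IGL), with IGLL5 added and IGLL1 kept out. The pattern matched 96 of the 28814 rows, and IGHMBP2, a helicase gene whose symbol merely shares the letters, was set aside. The 95 members comprised 58 heavy chain rows, 9 kappa rows, 22 lambda rows and 6 orphons, which are copies that lie outside the 3 loci. Of the 95, 42 were annotated as pseudogenes.

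An antibody heavy chain is encoded by a variable (V), a diversity (D) and a joining (J) segment that are cut out of long arrays and joined in the DNA of each B-cell precursor, and the joined exon is then spliced to a constant region, which in early B cells is that of IgM. Light chains are made from V and J segments of the kappa or lambda locus in the same way, normally after the heavy chain. Before a light chain exists, a precursor B cell pairs its heavy chain with the surrogate light chain, the product of VPREB1 and IGLL1. Unrearranged segments can also be transcribed, which gives so-called germline or sterile transcripts, and a gene count does not separate these from transcripts of a rearranged gene. Human kappa precedes lambda in the usual order of rearrangement.

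The heavy chain joining segments are printed because they showed some of the largest rises among the segments, and because their shared end shows how alike these short rows are. All sequences are those of GENCODE release 29 transcripts (GRCh38, the same build as hg38), given 5′ to 3′ on the minus strand of chromosome 14. Capitals mark the codons of a tryptophan, a glycine, any residue and a glycine, the motif that defines a heavy chain J segment. It was searched on both strands and was present in 7 of the 9 annotated heavy joining segments (77.8%) and in the last 60 bases of 5 of 327 annotated variable segments (1.53%). IGHJ3P, a pseudogene, is shown as a joining row without it.
IGHJ6: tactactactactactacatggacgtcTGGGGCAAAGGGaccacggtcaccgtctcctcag
IGHJ5: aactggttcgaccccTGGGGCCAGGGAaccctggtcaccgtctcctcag
IGHJ4: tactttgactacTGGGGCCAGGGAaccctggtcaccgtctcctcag
IGHJ3: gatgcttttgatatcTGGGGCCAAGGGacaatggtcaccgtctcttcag
IGHJ2: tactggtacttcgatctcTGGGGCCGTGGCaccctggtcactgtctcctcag
IGHJ1: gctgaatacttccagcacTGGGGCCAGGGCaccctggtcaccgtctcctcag
IGHJ3P: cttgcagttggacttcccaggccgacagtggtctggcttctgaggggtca

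The last 60 bases of 5 heavy chain variable segments are printed because these rows carry most of the variable reads or moved against them. Capitals mark TATTACTGT, the codons of the tyrosines and the conserved cysteine at the end of the variable segment, which stood in the last 60 bases of 27 of the 46 heavy variable members (58.7%) and of 86 of all 149 annotated heavy variable segments (57.7%), orphons included. It was searched on both strands. IGHV3-30 and IGHV3-33 are 99.1% identical over 429 aligned bases, so that reads may be divided between them or lost, and IGHV4-59 is 98.0% identical to IGHV4-61, which was not analysed here.
IGHV2-26: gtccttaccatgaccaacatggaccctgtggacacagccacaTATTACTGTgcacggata
IGHV4-34: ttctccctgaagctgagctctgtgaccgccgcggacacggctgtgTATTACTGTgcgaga
IGHV3-30: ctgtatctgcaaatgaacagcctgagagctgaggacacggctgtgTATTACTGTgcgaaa
IGHV3-33: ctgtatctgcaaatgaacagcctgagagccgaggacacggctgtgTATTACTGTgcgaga
IGHV4-59: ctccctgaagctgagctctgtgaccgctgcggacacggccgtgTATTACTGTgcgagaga

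The libraries held 14246367 to 16488005 counted reads. Levels below are counts scaled to library size (CPM) with TMM factors and are given for each library. No spike-in is named, so a level is relative to the rest of its own library. Fewer cells of a type and less RNA per cell cannot be told apart in such data. Markers were read to check the label: all 10 B-cell precursor markers had rows, and their summed level was 3813 and 3823 CPM with DMSO against 1090 and 1141 CPM with MZ1, with 10 called lower. The mature B-cell markers summed to 11.0 to 13.3 CPM with DMSO and 5.45 to 5.71 CPM with MZ1 (4 of 5 with a row, 1 called higher and 1 lower), and the plasma cell markers to 554 to 576 and 265 to 277 CPM (6 of 6 with a row, 2 called higher and 3 lower). T-cell markers fell in sum from 696 and 699 to 69.2 and 74.7 CPM, most of it IL7R, with 2 called lower. CD3D, CD3E, CD3G, CD2 and CD7 of that list were not analysed here. The myeloid markers rose in sum from 5.31 and 6.66 to 121 and 129 CPM, with 5 called higher and 1 lower of 6 with a row, and most of it was FCGR1A, which had 0 and 0 reads with DMSO and 1428 and 1335 with MZ1. Calls are those of the test described below, in which 42.8% of all tested genes were called higher and 41.3% lower. The part of these marker changes in the results below was not tested.

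Immunoglobulin segments as a whole took a larger share of the reads after MZ1. They held 0.167% and 0.171% of the counted reads in the DMSO libraries and 0.943% and 0.960% in the MZ1 libraries, and the widest Wilson 95% interval, that of MZ1 replicate 2, ran from 0.955% to 0.966%. IGHM alone gave 75.1% and 74.0% of the segment reads with DMSO and 77.5% and 77.6% with MZ1. Of the 95 members, 43 passed the filter on low counts and were tested with edgeR's quasi-likelihood test, in which 30 rose, 7 fell and 6 did not pass (Benjamini-Hochberg adjusted p under 0.05). Across all 16862 genes tested, 42.8% were called higher and 41.3% lower, and the median log2 fold change (MZ1 over DMSO) was 0.05. The median of the 43 tested members was 2.24 on the same scale, and it stayed at 2.24 with members at 0 reads in a group set to their bound. A member with few DMSO reads could pass the filter only by being high after MZ1. A member with few MZ1 reads could pass only through its DMSO reads. These counts therefore describe the tested rows and not all 95. Among the 16 tested pseudogenes 11 rose and 2 fell, and among the 27 other tested members 19 rose and 5 fell.

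The classes did not move together. The 4 heavy constant rows summed to 1310 and 1315 CPM with DMSO and 7582 and 7743 CPM with MZ1, a 5.84-fold rise in the sum. That rise is IGHM's: without it the log2 ratio of the sum turned from 2.55 to -0.41. The 46 heavy variable rows summed to 201 and 220 CPM against 987 and 1056 CPM (4.85-fold higher), and the 8 heavy joining rows to 24.3 and 26.1 CPM against 866 and 812 CPM (33.3-fold higher). In each of these classes both MZ1 libraries lay far above both DMSO libraries.

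Light chain sums were low and mixed. The 6 lambda constant rows summed to 28.5 and 29.2 CPM with DMSO and 9.41 and 13.0 CPM with MZ1 (2.57-fold lower). IGLL5, given below, is not among these rows. The 8 lambda variable rows went the other way, from 7.88 and 7.55 to 21.7 and 23.2 CPM (2.91-fold higher), and the 7 lambda joining rows from 3.18 and 4.6 to 6.86 and 6.43 CPM (1.71-fold higher). The 9 kappa variable rows held 26 and 22 reads with DMSO and 8 and 7 with MZ1, or 1.59 and 1.30 against 0.57 and 0.51 CPM (2.69-fold lower). Without IGKV2D-40, its most-read row, the log2 ratio of the kappa sum went from -1.43 to -0.10. In none of these classes did the groups overlap. With 2 libraries against 2, an exact two-sided permutation test of a single sum cannot go below p = 0.33, so no class sum can pass a threshold by itself. The tests of single rows below come from the fit over all genes.

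**Figure D1:**
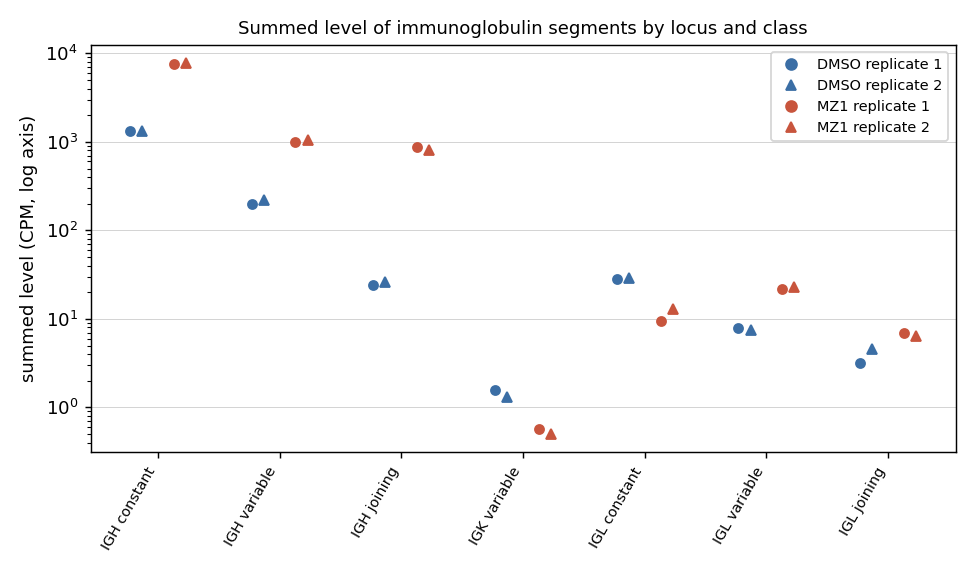
Summed TMM-scaled level (CPM, log axis) of each class of segment in each library; circles and triangles are replicates 1 and 2 of DMSO (blue) and MZ1 (red). The joining rows of the heavy chain locus rise most, 33.3-fold, while the lambda constant and kappa variable rows lie lower with MZ1.

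IGHM, the constant region of IgM (chr14:105851705-105856218, minus strand), was the most abundant segment in every library. It measured 1225 and 1229 CPM with DMSO and 7521 and 7676 CPM with MZ1, so that the MZ1 libraries stood well clear of the DMSO libraries and each pair lay close together. Its log2 fold change was 2.63 ± 0.03 (SE; edgeR adjusted p = 9.98e-28), or 6.19-fold.

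IGHD, the constant region of IgD (chr14:105836765-105845678), lies next to IGHM and is made from the same transcript by alternative splicing in mature B cells. It measured 84.9 and 85.1 CPM with DMSO and 58.7 and 66.0 CPM with MZ1, with no overlap. It fell by 0.45 on the log2 scale (SE 0.06, edgeR adjusted p = 3.41e-07). IGHD reads per 1000 IGHM reads therefore went from 69.3 and 69.2 to 7.81 and 8.60, a ratio chosen after its values were seen (exact permutation p = 0.33, the smallest that the design allows).

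IGHG3, the constant region of IgG3, had 3 and 5 reads with DMSO and 24 and 14 with MZ1, or 0.18 and 0.30 against 1.70 and 1.01 CPM. It rose by a log2 fold change of 2.46 ± 0.56 (edgeR adjusted p = 2.66e-04), at a level far under that of IGHM. The row passed the count filter only through its MZ1 reads, so it could hardly be called lower. IGHG3 is 92.1% identical to IGHG1, which was not analysed here. The pseudogene IGHGP had 0, 2, 10 and 7 reads in DMSO replicates 1 and 2 and MZ1 replicates 1 and 2, was under the filter, and is 94.6% identical to IGHG2, also not analysed here. Per exonic length IGHM stood at 656 RPKM with DMSO and 4061 RPKM with MZ1, and IGHD at 49.7 and 36.5 RPKM.

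The joining segments of the heavy chain locus, whose sequences are printed above, rose together. All 7 that were tested were called higher, with log2 fold changes from 4.77 (IGHJ3) to 5.42 (IGHJ2P) and a median of 5.06. Of all tested genes 42.8% were called higher. J segments supply the short stretch between the diversity segment and the constant region, and all 8 rows lie upstream of IGHM. The rows include 2 pseudogenes, IGHJ2P and IGHJ3P.

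IGHJ6 (chr14:105863198-105863258), the J segment nearest to IGHM, measured 5.50 and 5.61 CPM with DMSO and 185 and 166 CPM with MZ1. Its log2 fold change was 4.98 ± 0.09 (edgeR adjusted p = 4.36e-25), or 31.6-fold. IGHJ5 measured 4.58 and 4.19 CPM against 165 and 157 CPM, a 36.7-fold rise (log2 fold change 5.20 ± 0.08, edgeR adjusted p = 1.47e-25). Neither row showed any overlap between the groups, and the 2 libraries of each group lay close to each other.

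IGHJ4 rose 32.2-fold, from 4.4 and 5.25 to 162 and 149 CPM. IGHJ3P, which lacks the shared motif, rose 33.3-fold, from 5.13 and 4.78 to 167 and 163 CPM. IGHJ3 rose 27.3-fold, from 2.63 and 3.60 to 88.8 and 81.2 CPM. The pseudogene segments therefore rose by factors like those of their functional neighbours.

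IGHJ2P rose 43.2-fold, from 1.10 and 1.59 to 60.3 and 56.0 CPM. IGHJ2 (chr14:105865199-105865250) rose 36.0-fold, from 0.92 and 1.12 to 37.1 and 36.1 CPM. IGHJ1, the J segment farthest from IGHM, had 0 and 0 reads with DMSO and 1 and 61 with MZ1 and was not tested. The 2 MZ1 libraries disagreed on IGHJ1, and its group mean was at least 24.6-fold higher than the DMSO floor of 3 counts only because of replicate 2. Per exonic length, the levels with MZ1 were 2875 RPKM for IGHJ6, 3303 for IGHJ3P, 3286 for IGHJ5 and 3378 for IGHJ4, the joining rows nearest to IGHM. They were lower for the rows farther away, at 1736 RPKM for IGHJ3, 970 for IGHJ2P, 705 for IGHJ2 and 43.1 for IGHJ1. In CPM the 2 MZ1 libraries of each of the last 4 rows lay wholly under those of the row before, while IGHJ6, IGHJ3P and IGHJ5 each overlapped with the next. The rows are 46 to 61 bases long, and RPKM of such short rows depends on how reads that reach past the segment were counted.

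Joining rows rose more than the constant region. J reads per 1000 IGHM reads went from 19.8 and 21.3 with DMSO to 115 and 106 with MZ1, a 5.38-fold difference with no overlap. This ratio was chosen after its values were seen, and its exact permutation p was 0.33, the smallest possible here.

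**Figure D2:**
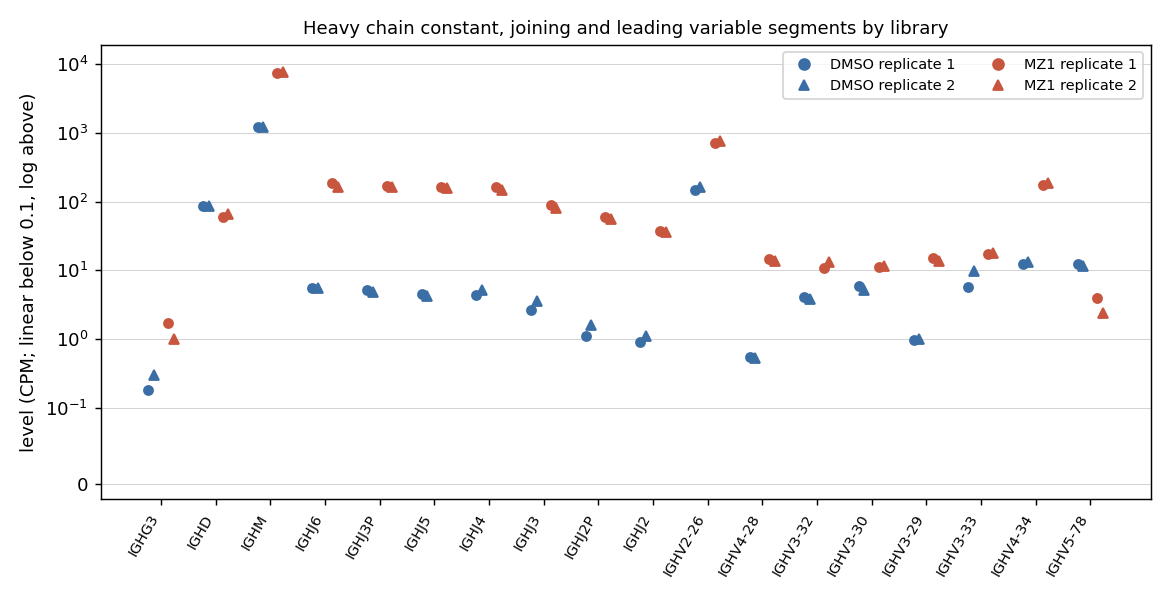
TMM-scaled level (CPM; linear below 0.1 and log above) of heavy chain constant, joining and leading variable rows in each library, in order along the locus; circles and triangles are replicates 1 and 2 of DMSO (blue) and MZ1 (red). The 7 joining rows lie between 0.92 and 5.61 CPM with DMSO and between 36.1 and 185 CPM with MZ1, IGHD and IGHV5-78 lie lower with MZ1, and IGHV4-59, IGHGP and IGHJ1 are not drawn.

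Among heavy variable segments, 19 of the 46 rows were tested, and 14 rose, 2 fell and 3 did not pass. Of all tested genes 42.8% rose and 41.3% fell, but rows with few DMSO reads passed the filter only through MZ1. Variable segments encode most of the antigen-binding domain. IGHV2-26 (chr14:106301396-106301862) dominated in both groups. It measured 147 and 162 CPM with DMSO and 701 and 757 CPM with MZ1, with a log2 fold change of 2.24 ± 0.05 (edgeR adjusted p = 5.68e-23), or 4.73-fold.

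The share of IGHV2-26 among heavy variable reads was similar in every library. It was 72.9% (Wilson 95% interval 71.4% to 74.4%) and 73.5% with DMSO and 71.0% and 71.7% (70.9% to 72.4%) with MZ1. Per exonic length it stood at 405 RPKM with DMSO and 1913 RPKM with MZ1. Its closest annotated copies are the orphon IGHV2OR16-5 (94.9% identical) and IGHV2-5 (92.2%), neither of which was analysed here. IGHV2-26 reads per 1000 IGHM reads were 120 and 132 with DMSO and 93.2 and 98.7 with MZ1, so the leading variable row rose somewhat less than the constant region (exact permutation p = 0.33).

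IGHV4-34 (chr14:106373663-106374145), a segment known for autoreactive antibodies that bind red-cell antigens, was second to it with MZ1, also per length. It measured 12.5 and 13.4 CPM with DMSO and 177 and 185 CPM with MZ1, with no overlap. Its log2 fold change was 3.81 ± 0.07 (edgeR adjusted p = 8.81e-25), or 14-fold, and per exonic length it went from 32.3 to 453 RPKM. Its share of heavy variable reads went from 6.20% (Wilson 95% interval 5.43% to 7.08%) and 6.08% to 17.9% and 17.6% (17.0% to 18.2%), intervals that lie far apart. IGHV4-34 reads per 100 IGHV2-26 reads were 8.5 and 8.28 with DMSO and 25.3 and 24.5 with MZ1, a ratio chosen after its values were seen (exact permutation p = 0.33).

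The other rows of high level in the same stretch rose less evenly. IGHV3-33 measured 5.68 and 9.74 CPM with DMSO and 17.3 and 18.1 CPM with MZ1 (log2 fold change 1.19 ± 0.17, edgeR adjusted p = 5.55e-07), and its DMSO libraries differed more than those of other rows at this level. IGHV3-30, its near-identical neighbour, rose 2.03-fold, from 5.86 and 5.25 to 11.1 and 11.4 CPM. The pseudogene IGHV3-32 rose 3.05-fold, from 4.03 and 3.83 to 10.8 and 13.2 CPM. IGHV3-29, a pseudogene 97.4% identical to it, rose 14.5-fold, from 0.98 and 1.00 to 15 and 13.7 CPM. IGHV4-28, which passed the count filter only through its MZ1 reads, rose 26.4-fold, from 0.55 and 0.53 to 14.6 and 13.9 CPM (edgeR adjusted p = 7.07e-15). These 5 rows rose by unlike factors although they lie in the same stretch and reached similar levels with MZ1.

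Several further rows of that stretch were nearly silent with DMSO. They are named here after their values were seen. The pseudogene IGHV7-27 had 2 and 1 reads with DMSO and 154 and 172 with MZ1, a ratio of 129 with an exact 95% interval from 43.9 to 631. The pseudogene IGHVII-30-1 had 1 and 0 reads against 29 and 30, and IGHV4-31 had 0 and 1 against 16 and 29, with ratios of 70.3 (12.1 to 2822) and 53.6 (9.14 to 2163). Among rows with no DMSO read, IGHV3-30-2 was at least 20.2-fold higher and IGHV7-34-1 at least 14.3-fold higher with MZ1, each against a floor of 3 counts over the group. All 5 passed the count filter only through their MZ1 reads, so their calls as higher in edgeR's test are no separate support. The intervals cover counting error only.

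The called rises lay in the stretch nearest to the joining segments that had rows. The 18 variable rows from IGHV2-26 to IGHV7-34-1 fill 76.3 kb (chr14:106301396-106377733), in which all 18 annotated segments had a row. All 18 had a higher mean CPM with MZ1, and the 14 that were tested all rose, against 42.8% of all tested genes. Several of the 14 had few or no DMSO reads and passed the count filter only through MZ1. Such rows could hardly be called lower, so the 2 shares are not like for like. IGHVII-28-1, a pseudogene named after its value was seen, lost its call with DESeq2 (adjusted p = 0.0512), and the other 13 kept theirs with every tool. Their reads numbered 2906 and 3333 with DMSO and 13831 and 14513 with MZ1, and without IGHV2-26 still 506 and 592 against 3926 and 4037. In the 490 kb beyond (chr14:106389392-106879812), 28 of 72 annotated segments had a row and 5 were tested, of which 0 rose, 2 fell and 3 did not pass. The 2 of 5 called lower stand beside 41.3% of all tested genes called lower. There 12 rows had more and 16 fewer reads for their library size with MZ1, and the reads numbered 385 and 399 against 122 and 103. Most of these DMSO reads came from IGHV5-78 (200 and 199, against 56 and 33 with MZ1) and IGHV4-59 (76 and 76, against 0 and 1). The 36 variable segments annotated between the joining segments and IGHV2-26 (chr14:105939756-106293808) were not analysed here. The division into stretches was made after the values were seen and carries no test.

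**Figure D3:**
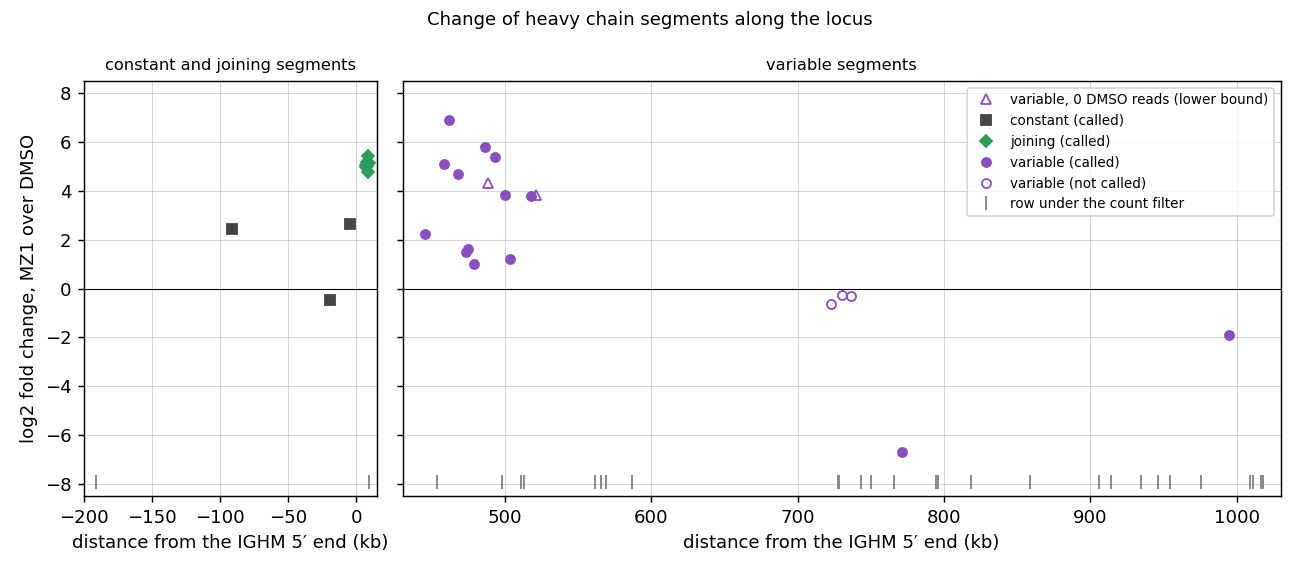
Log2 fold change (MZ1 over DMSO) of tested heavy chain rows against distance (kb) from the 5′ end of IGHM, with filled marks for called rows, open circles for rows not called, open triangles for lower bounds of rows with 0 DMSO reads and ticks at the base for rows under the count filter. The tested variable rows of the 76.3 kb from IGHV2-26 to IGHV7-34-1 all lie above 0, and the 5 tested beyond lie below 0, of which IGHV3-52 goes to 0.0016 with upper-quartile scaling.

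IGHV5-78 and IGHV4-59, both in the distal part, were the only heavy variable segments called lower among the 19 tested. Of the 28 distal rows 5 were tested, and those under the filter could not be called in either direction. IGHV5-78, a pseudogene near the distal end of the array (chr14:106851123-106851417), measured 12.2 and 11.7 CPM with DMSO and 3.96 and 2.39 CPM with MZ1. It fell by 1.91 on the log2 scale (SE 0.20, edgeR adjusted p = 3.70e-09), or was 3.78-fold lower. IGHV4-59 (chr14:106627249-106627825), a functional segment, had 76 and 76 reads with DMSO and 0 and 1 with MZ1. The ratio of its summed counts was 0.0078 (exact 95% interval 0.0002 to 0.0443, edgeR adjusted p = 2.33e-10). IGHV4-59 passed the count filter only through its DMSO reads, so it could hardly be called higher. IGHV5-51, IGHV3-52 and IGHV3-53, which lie between the rising stretch and IGHV4-59 and are named after their values were seen, had log2 fold changes of -0.64, -0.27 and -0.30 (edgeR adjusted p = 0.182, 0.647 and 0.578). The sign of IGHV3-52 turned with upper-quartile scaling (0.0016) and without DMSO replicate 2 (0.18) or MZ1 replicate 2 (0.037).

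Kappa segments were close to absent. The kappa rows together made up 0.097% and 0.078% of segment reads with DMSO and 0.0058% and 0.0051% with MZ1. IGKV2D-40, the only row tested, had 13 and 16 reads with DMSO and 0 and 0 with MZ1 (edgeR adjusted p = 2.06e-05). That is at least 8.12-fold lower against a floor of 3 counts over the group. The row passed the count filter only through its DMSO reads, so it could hardly be called higher. It was under the filter, and so not tested, with the stricter count filter and without DMSO replicate 2. It held 13 of 26 and 16 of 22 kappa variable reads with DMSO and 0 of 8 and 0 of 7 with MZ1, where the Wilson 95% intervals for 0 reach up to 32.4% and 35.4%. It is 100% identical to IGKV2-40 over 314 aligned bases, so the count cannot be tied to a single copy, and IGKV2-40 was not analysed here. The other 8 kappa rows had 2 to 6 reads over the 4 libraries. IGKV1-8 had 4 and 2 reads with DMSO and 0 and 0 with MZ1, IGKV2-30 had 3 and 1 against 0 and 0, IGKV2-24 had 3 and 0 against 1 and 2, IGKV2-29 had 1 and 0 against 2 and 1, and IGKV2D-29 had 1 and 0 against 4 and 1. Differences at this depth were not detectable in any of those rows. The kappa constant region and its joining segments were not analysed here.

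At the lambda locus, the summed variable rows were higher with MZ1 and the summed constant rows lower, with IGLL5 counted in neither class. IGLL5, the lambda row with most reads, resembles IGLL1 but reads into the first lambda joining and constant segments (chr22:22887780-22896107, plus strand). It measured 53.1 and 55.9 CPM with DMSO and 223 and 234 CPM with MZ1, with no overlap, and rose 4.19-fold (log2 fold change 2.07 ± 0.05, edgeR adjusted p = 1.14e-21). Of its exonic length 43.6% is shared with IGLC1 and IGLJ1, and it is 100% identical to IGLC1 over 460 aligned bases. IGLC1 itself was not analysed here, and reads from the shared stretch cannot be assigned to either gene. The lambda constant sum therefore leaves out any reads of IGLC1, and the direction of all lambda constant exons together was not tested.

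The constant rows downstream of IGLL5 encode, or once encoded, the body of the lambda light chain. Of the 5 tested, 3 fell, beside 41.3% of all tested genes called lower. The pseudogene IGLC5 (chr22:22915635-22915927) had the highest level of them per length with DMSO (45.0 RPKM), and measured 12.2 and 14.2 CPM, against 1.84 and 3.18 CPM with MZ1. It fell by 2.39 on the log2 scale (SE 0.21, edgeR adjusted p = 1.17e-10), or was 5.26-fold lower. IGLC2 measured 8.37 and 9.09 CPM against 3.75 and 5.57 CPM and fell by 0.91 (SE 0.20, edgeR adjusted p = 1.97e-04).

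IGLC3, 99.1% identical to IGLC2, measured 5.44 and 3.48 CPM against 2.48 and 2.24 CPM and fell by 0.91 (SE 0.28, edgeR adjusted p = 0.0046). Its call was lost with DESeq2 (adjusted p = 0.0672) and without DMSO replicate 1 (edgeR adjusted p = 0.112). The pseudogenes IGLC4 and IGLC6 had log2 fold changes of -0.68 and -0.45 and did not pass (edgeR adjusted p = 0.134 and 0.422), and IGLC6 went to 0.13 without MZ1 replicate 1 and to -1.37 without MZ1 replicate 2. IGLL5 reads per lambda constant read were 1.87 and 1.91 with DMSO and 23.7 and 18 with MZ1, a ratio chosen after its values were seen (exact permutation p = 0.33).

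Lambda joining rows lie each just before a constant segment. IGLJ1, 96.1% of which lies within IGLL5, had 1 and 4 reads with DMSO and 32 and 25 with MZ1. It passed the count filter only through its MZ1 reads. Its log2 fold change was 3.69 ± 0.58 (edgeR adjusted p = 1.85e-06), or 3.02 without DMSO replicate 1 and 4.84 without DMSO replicate 2. IGLJ2 measured 1.04 and 1.83 CPM against 2.90 and 2.75 CPM (log2 fold change 0.97, edgeR adjusted p = 0.0113). The call of IGLJ2 was lost with DESeq2 (adjusted p = 0.164), without a count filter (edgeR adjusted p = 0.0739) and without DMSO replicate 1 (edgeR adjusted p = 0.181). IGLJ3 did not pass (log2 fold change -0.22, edgeR adjusted p = 0.655), and its sign turned without MZ1 replicate 1, at 0.10, and with upper-quartile scaling, at 0.05. IGLJ4, IGLJ5 and IGLJ6 had 10, 38 and 11 reads in all and were under the filter.

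The 3 lambda variable rows that were tested all rose, as did 42.8% of all tested genes, and IGLV1-50 passed the filter only through its MZ1 reads. IGLV5-52 (chr22:22318727-22319226) led them in every library, with 6.23 and 4.90 CPM with DMSO and 13.9 and 16.8 CPM with MZ1 (log2 fold change 1.46 ± 0.16, edgeR adjusted p = 1.03e-08). It held 79.1% and 64.8% of lambda variable reads with DMSO and 64.2% and 72.3% with MZ1, shares that overlap between the groups. IGLV1-51 rose 2.86-fold, from 1.47 and 2.12 to 6.15 and 4.12 CPM (edgeR adjusted p = 4.33e-05). IGLV1-50 had 0 and 5 reads against 20 and 28 (log2 fold change 3.45, edgeR adjusted p = 2.72e-05), and its log2 fold change was 2.46 without DMSO replicate 1 and had no DMSO read behind it without DMSO replicate 2. These 3 rows are neighbours among the lambda variable rows. The other 5 lambda variable rows had 2 to 4 reads in all, among them IGLV8-61 with 1 and 3 reads against 0 and 0, IGLV9-49 with 0 and 0 against 2 and 1, and IGLV2-8 with 2 and 1 against 0 and 0, numbers at which no difference was detectable.

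**Figure D4:**
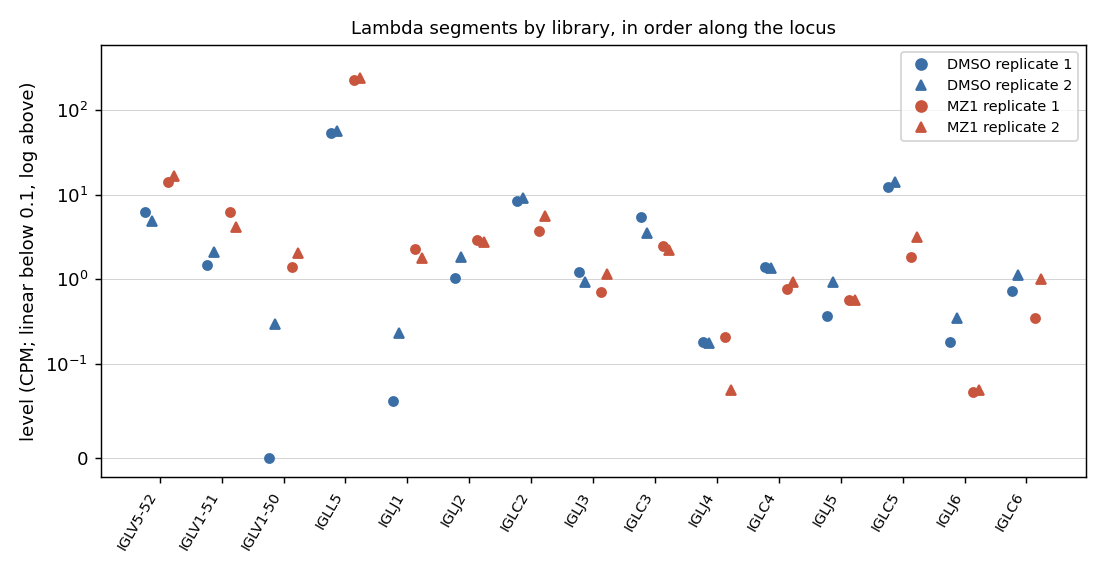
TMM-scaled level (CPM; linear below 0.1 and log above) of lambda rows in each library, in order along the locus from the variable rows to the last constant row; circles and triangles are replicates 1 and 2 of DMSO (blue) and MZ1 (red). The drawn rows from IGLV5-52 to IGLJ2 lie higher with MZ1, the lambda variable rows under the count filter are not drawn, and IGLC2, IGLC3, IGLC4 and IGLC5 lie lower.

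Orphons lie outside the loci and cannot form an antibody chain. Of the 6 orphon rows 1 was tested: IGLVIVOR22-2 had 4 and 1 reads with DMSO and 13 and 12 with MZ1 (log2 fold change 2.51, edgeR adjusted p = 0.00115), a call lost with DESeq2 (adjusted p = 0.0746) and without DMSO replicate 2 (edgeR adjusted p = 0.0795, log2 fold change 1.80). Without DMSO replicate 1 its log2 fold change was 3.70. The row passed the count filter only through its MZ1 reads. IGLVIVOR22-1 had 7 and 4 reads against 0 and 0, at least 3.08-fold lower than with DMSO. IGKV2OR2-1 had 2 and 3 reads against 1 and 1. The 52 members under the filter had 2 to 62 reads over the 4 libraries, and 34 of the 95 members had under 10. GENCODE annotates 412 segments of these kinds, IGLL5 included, of which 95 had a row. The rest, among them all 27 diversity segments of the heavy chain locus, were not analysed here.

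Genes that act on immunoglobulin chains or their transcription were read from a fixed list, of which 35 were analysed. Of these 35, 27 fell, 5 rose and 3 did not pass, against the 41.3% lower and 42.8% higher of all tested genes, and their median log2 fold change was -1.06. All 5 genes of the surrogate light chain and receptor fell. IGLL1, a surrogate light chain component, measured 500 and 484 CPM with DMSO and 7.5 and 7.37 CPM with MZ1, or 66.2-fold lower (edgeR adjusted p = 1.15e-28). VPREB1, the other component, was 8.04-fold lower, and VPREB3, a related protein that binds heavy chains in the secretory pathway, was 22.3-fold lower. IGHM and IGLL1 therefore moved apart: there were 2.45 and 2.54 IGHM reads per IGLL1 read with DMSO and 1003 and 1041 with MZ1, a ratio chosen after its values were seen (exact permutation p = 0.33).

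Of 7 genes of antibody assembly and secretion, 6 fell and 1 rose, beside 41.3% lower and 42.8% higher of all tested genes. JCHAIN, which joins IgM and IgA into polymers, went from 259 and 227 to 4.81 and 4.70 CPM (51.1-fold lower). MZB1, a chaperone of IgM assembly in the endoplasmic reticulum, was 22.5-fold lower. XBP1, a factor of the secretory programme, was the exception, with 1.35-fold more (edgeR adjusted p = 3.87e-09), and is named after its value was seen.

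Of 20 factors that bind immunoglobulin promoters or enhancers or control those that do, 15 fell, 3 rose and 2 did not pass. Beside this, 41.3% of all tested genes were called lower and 42.8% higher. IRF4, which acts at light chain enhancers with PU.1, rose most, from 74.7 and 71.2 to 1008 and 971 CPM (13.6-fold, edgeR adjusted p = 7.63e-28). SPI1, the gene of PU.1, fell, with 19 and 16 reads with DMSO and 1 and 2 with MZ1 (edgeR adjusted p = 1.43e-04). It passed the count filter only through its DMSO reads. It is named after its value was seen. IKZF1 (Ikaros) was 14.8-fold lower, MEF2C 6.04-fold, RUNX1 3.73-fold and TCF3, which encodes the E2A proteins that bind heavy and light chain enhancers, 2.5-fold. ID3, an inhibitor of E proteins, was 4.52-fold lower. ID2, another such inhibitor, rose 2.62-fold at a low level, from 1.83 and 2.42 to 5.87 and 5.28 CPM. IRF8 rose 2.61-fold. Both ID2 and IRF8 are named after their values were seen. Among 3 genes of recombination, DNTT, the template-independent polymerase of V(D)J junctions, went from 1244 and 1224 to 84.3 and 94.4 CPM (13.8-fold lower), RAG2 was 1.12-fold higher, and RAG1 had 112 and 111 CPM against 104 and 117 CPM and did not pass (edgeR adjusted p = 0.0231 for RAG2 and 0.809 for RAG1, both named after their values were seen). The call of RAG2 was lost with DESeq2 (adjusted p = 0.352), with library totals (edgeR adjusted p = 0.211), without a count filter (0.295) and without DMSO replicate 2 (0.574) or MZ1 replicate 2 (0.0715), and RAG1 was called higher with upper-quartile scaling (log2 fold change 0.26). Both RAG genes encode the recombinase that cuts the segments.

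**Figure D5:**
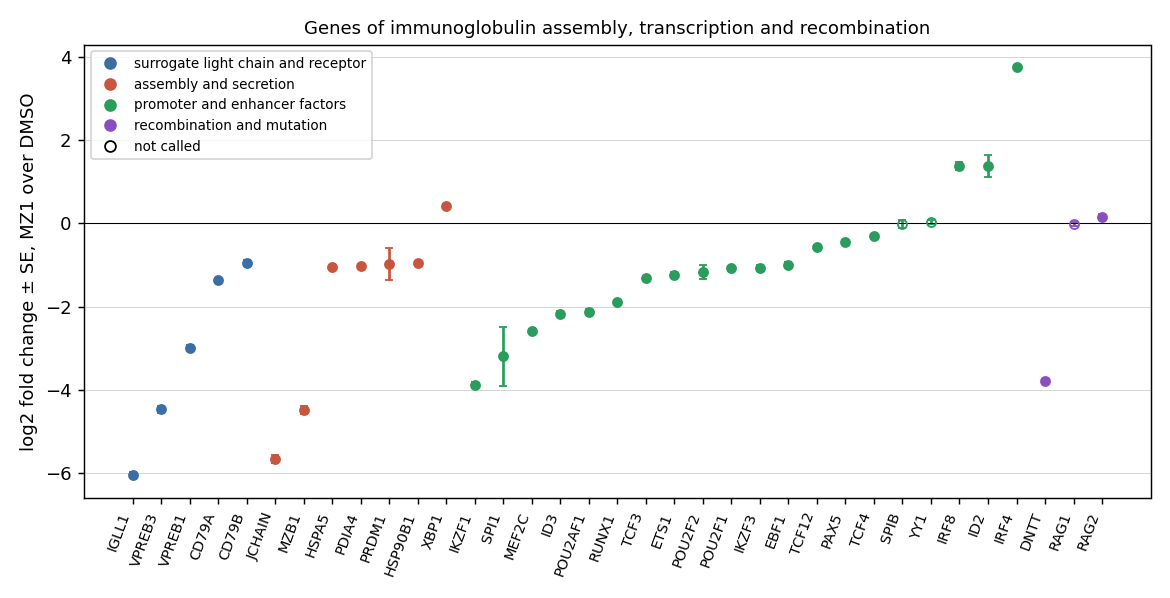
Log2 fold change (MZ1 over DMSO) ± SE of 35 genes of the surrogate light chain and receptor, assembly and secretion, promoter and enhancer factors, and recombination; filled marks were called in edgeR's test. IGLL1 lies lowest, at -6.05, and IRF4 highest, at 3.76.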

How the data were processed

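Total RNA of 4 samples was sequenced with a TruSeq RNA kit, per the labels' protocols. The deposited unit is whole-number read counts for each Ensembl gene ID, per the file headers. HISAT2 2.2.0 and hg38 appear per the submitters' processing notes, but the counter, annotation and strand setting were not given in the sources, so copies and overlapping genes may exchange reads. The lowest row total was 2. Positions and sequences came from GENCODE 29.

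edgeR 4.0.16 in R 4.3.3 was used on all 4 libraries (filterByExpr, TMM, quasi-likelihood test, treatment as the only term; adjusted p under 0.05 over 16862 genes). Floors of 3 counts over a group equal 0.09 CPM (DMSO) and 0.107 CPM (MZ1). Intervals and floors describe counting error alone, because PCR copies were not marked. Replicates differed beyond sampling noise (chi-square per degree of freedom 2.56 and 2.26). Identities are local alignments in Biopython 1.88. The fit was also run on simulated counts in which a small part of the genes changed, all of them well counted. That run does not bear on rows with few reads or on scaling under broad change. Alternatives were DESeq2 1.42.0, limma-voom 3.58.1, other scalings and filters, the replicate block and each library left out.

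Members, lists and the naming rule were chosen with earlier results of these data known. Named were constant rows, IGLL5 and joining rows of at least 10 reads, per locus the 6 variable rows of highest level and 3 per direction of smallest adjusted p, 12 related genes by adjusted p, and 3 orphons by reads.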

Additional observations from a re-analysis of the deposited data

How the results depend on the processing

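The counts of members held within 1.5 times under the other scalings, filters and tests and with each library left out (30 to 31 higher and 6 to 8 lower with a library left out), except that leaving out pseudogenes left 19 higher. DESeq2 called 29 higher and 7 lower. Upper-quartile scaling raised the related genes called higher to 8. The difference of replicate 1 from replicate 2 was hardly shared between the groups (correlation across genes 0.014). That value does not show whether the libraries were paired, which the labels do not say. With the replicate block 30 members were higher and 7 lower, as without it.

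Class sums moved by more than the replicate SD as follows, in log2 ratio. The heavy constant sum was 2.82 with upper-quartile scaling, 2.57 with relative log expression and 2.47 with library totals, and without IGHM it turned to -0.41, where IGHD makes up most of the rest. The heavy variable sum was 2.55 with upper-quartile scaling. The kappa variable sum was -1.16 with upper-quartile scaling, -1.72 without pseudogenes and -0.10 without its most-read row. The lambda constant sum was -0.90 without pseudogenes and -0.85 without its most-read row, and the lambda variable sum was 1.81 with upper-quartile scaling and 1.72 without its most-read row. Without pseudogenes IGHV2-26 held 80.9% (DMSO) and 76.2% (MZ1) of heavy variable reads. IGLJ3 turned to 0.054 with upper-quartile scaling, and with each library left out it ranged from -0.61 to 0.10 and IGLC6 from -1.37 to 0.13, the highest in both without MZ1 replicate 1. IGHV3-52 turned to 0.0016 with upper-quartile scaling and ranged from -0.67 to 0.18 with a library left out. RAG1 turned to 0.26 with upper-quartile scaling, 0.014 with relative log expression and 0.020 with the stricter filter, and ranged from -0.0993 to 0.072 with a library left out. Alternatives were run for 66 genes, namely the 43 tested members, the named related genes other than SPI1, ID2 and IRF8, and the named neighbours in the loci. Of their 785 values, 758 kept direction and call, 17 lost the call and 10 reversed, and IGKV2D-40, IGHG3 and IGLVIVOR22-2 were among rows not tested with the stricter filter. Depth leaves rows with few reads in a group with wide intervals.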

Other observations

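Rows inside the loci that are no segments moved too. Between IGHM and IGHJ6, over 6.98 kb, lie 4 miRNA hairpin genes, all of which were called higher. Across all tested genes 42.8% were called higher, and MIR4507 passed the filter only through its MZ1 reads. MIR4537 measured 7.21 and 5.66 CPM with DMSO and 153 and 156 CPM with MZ1 (24.0-fold, edgeR adjusted p = 1.30e-24). MIR4539 rose 27.3-fold, MIR4538 29.8-fold and MIR4507 14.8-fold, beside 27.3-fold to 43.2-fold for the tested heavy chain joining rows. The rows count reads over hairpins in an RNA library and do not measure mature miRNAs. MIR4507 and MIR4538 overlap each other by position. MIR5195, whose hairpin lies beside IGHV5-78 in the distal array, went from 7.09 and 6.84 to 1.27 and 1.95 CPM and fell by 2.11 on the log2 scale (SE 0.26, edgeR adjusted p = 5.41e-08).

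In the lambda locus, VPREB1 was lower with MZ1 (log2 fold change -3.01) while all 5 non-segment rows between it and IGLV1-47, over 112 kb, were called higher. The share called higher over all tested genes was 42.8%. BMS1P20, a pseudogene there, measured 48.2 and 45.3 CPM against 75.6 and 70.8 CPM (log2 fold change 0.65 ± 0.07, edgeR adjusted p = 1.66e-09). ASH2LP3, another pseudogene, had 1 and 0 reads with DMSO and 77 and 90 with MZ1, and passed the filter only through the latter. ZNF280B, farther along the array, fell by 0.87 (SE 0.34, edgeR adjusted p = 0.0215), a call lost with DESeq2 (adjusted p = 0.181), with upper-quartile scaling (edgeR adjusted p = 0.106) and without DMSO replicate 1 or MZ1 replicate 1 (edgeR adjusted p = 0.102 in each). These neighbours were chosen after their values were seen.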
